A study of Mus musculus with 2 samples.

Results

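Ppara encodes peroxisome proliferator-activated receptor alpha, a nuclear receptor that fatty acids and fibrate drugs activate. Together with it stand 4 genes that are known PPARA targets, mostly from work in mouse liver: the fatty acid enzymes Slc27a2, Acsl1 and Ehhadh and the fuel-switch kinase Pdk4. The genes were chosen by symbol, and selected on their H4-TG over WT fold, from the authors' deposited table of probes higher in inguinal fat of H4-TG mice, so each had at least 1.5-fold more signal there by the way it was chosen. These 5 genes are 5 of the 800 genes that could be named on the array, and each had 1 probe (transcript cluster) in the authors' table.

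Inguinal white adipose tissue, the subcutaneous fat of the groin, was profiled on 1 array for wild-type (WT) and 1 array for H4-TG mice. Each array carried total RNA pooled from 4 male mice of about 8 weeks, kept on normal chow at room temperature. The labels spell out neither H4 nor TG, and give no strain and no promoter or cell type of expression. Pooling leaves 1 value per genotype, so no spread between replicates exists, no test was run, and every difference below describes 2 arrays. In RNA of whole tissue, more cells of a type and more RNA per cell cannot be told apart.

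When fat is broken down, fatty acids are released from stored triglyceride. A fatty acid must be joined to coenzyme A before a cell can burn it or store it again. Acyl-CoA synthetases make that bond, carnitine carries long acyl chains into mitochondria, and peroxisomes shorten the chains that mitochondria handle poorly. PPARA pairs with a retinoid X receptor and binds DNA at a direct repeat of the hexamer AGGTCA with a single base between the copies. Brown fat, liver, heart and oxidative muscle express much Ppara, whereas the related receptor Pparg governs white adipocytes.

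The stretches of 250 bases before the start of Ppara, Pdk4 and Slc27a2 are shown because they are the receptor, the brightest of the PPARA targets after Acsl1, and the only gene of the 5 whose window held a match to that repeat, with 3 letters mismatched. They were taken from RefSeq (GRCm38.p6) and run 5′ to 3′ along the gene, at chr15:85735526-85735775 on the plus strand, chr6:5496279-5496528 on the minus strand and chr2:126552774-126553023 on the plus strand. Capitals mark the match.
Ppara: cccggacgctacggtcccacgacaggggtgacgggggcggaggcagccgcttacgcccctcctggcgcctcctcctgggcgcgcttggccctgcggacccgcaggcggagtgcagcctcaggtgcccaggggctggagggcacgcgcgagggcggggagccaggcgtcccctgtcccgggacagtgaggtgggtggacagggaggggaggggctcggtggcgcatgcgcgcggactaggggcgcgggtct
Pdk4: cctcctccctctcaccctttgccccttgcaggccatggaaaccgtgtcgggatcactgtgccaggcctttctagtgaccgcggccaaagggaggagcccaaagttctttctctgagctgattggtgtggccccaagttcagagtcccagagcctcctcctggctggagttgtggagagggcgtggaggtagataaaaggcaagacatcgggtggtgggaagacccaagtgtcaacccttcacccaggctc
Slc27a2: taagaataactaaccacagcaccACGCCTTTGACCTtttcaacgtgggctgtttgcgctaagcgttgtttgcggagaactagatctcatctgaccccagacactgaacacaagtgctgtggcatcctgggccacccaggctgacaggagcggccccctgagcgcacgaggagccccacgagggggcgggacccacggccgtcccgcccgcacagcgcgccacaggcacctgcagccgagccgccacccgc

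The RefSeq table held all 5 genes with 6 starts, since Acsl1 had 2. Searched on both strands, the letters AGGTCA occurred before 1 of the 6 starts, that of Slc27a2. They occur in 14.0% of the 32841 windows of this length in the table. The full repeat AGGTCANAGGTCA was not found in any of the 6 windows, and it occurs in 0.0335% of all windows. With up to 3 of its 12 fixed letters mismatched, the repeat was found before Slc27a2 alone, on the strand opposite to the one printed, 227 to 215 bases before the start, and it contains the AGGTCA hexamer. Among all windows 21.3% hold a match at least that close, so such a match is common. The letters TATAAA were in 0 of the 6 windows, against 12.4% of all windows. The window before Ppara was 76.4% G and C, that before Pdk4 58.8% and that before Slc27a2 64.0%, with a median of 52.4% over all windows. A match here is a run of letters only, and PPARA sites farther from a start were outside these windows.

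Ppara itself had a log2 signal of 7.32 in the WT pool and 8.04 in the H4-TG pool. The difference, H4-TG minus WT, was 0.72 on the log2 scale, or 1.65-fold. In the authors' deposited table its probe, 10425987, lies on chromosome 15 at 85566206 to 85633249, with no genome build stated. Over all 35556 probes the median difference was -0.01. By brightness the Ppara probe ranked 12211 of 35556 in the WT pool and 7784 in the H4-TG pool. Such ranks order probes, whose binding strength differs, and not transcripts by abundance.

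Slc27a2 and Acsl1 both join fatty acids to coenzyme A. SLC27A2, also called FATP2 or very long-chain acyl-CoA synthetase, is best known from liver and kidney, where it also promotes fatty acid uptake. Slc27a2 (probe 10475653, chromosome 2 at 126378760 to 126413979) had a log2 signal of 5.80 in the WT pool and 6.71 in the H4-TG pool, a difference of 0.91 or 1.88-fold. It was the dimmest of the 5 probes and had the largest difference among them. Its mean over both arrays, 6.25, lay just below 6.31, the median of that mean over all probes, which serves here as the signal minimum. By brightness it ranked 21036 in the WT pool and 15332 in the H4-TG pool.

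Acsl1, the long-chain acyl-CoA synthetase that is prominent in fat cells and heart, was the brightest of the 5. Its signal was 11.95 in the WT pool and 12.55 in the H4-TG pool, a difference of 0.60 or 1.52-fold. Its probe, 10571657, lies on chromosome 8 at 47556396 to 47621405. It ranked 317 in the WT pool and 121 in the H4-TG pool, within the top 0.892% and 0.340% of probes. Of the 5 genes it lay nearest to the limit of the authors' deposited table, which begins at 1.5-fold. Of the 1518 probes at least 1.5-fold higher, 669 are not in the table. Many of those have identifiers below any in it. By difference Acsl1 ranked 1422 over all probes, 982 among the 28934 from the table's lowest identifier upward, and 789 within the table. The table is thus incomplete also from that identifier upward, and a gene without a row may lie on either side of the limit. Shares, medians and ranks over all 35556 probes include the lower identifiers, which are not annotated here.

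Ehhadh encodes the peroxisomal bifunctional enzyme, which carries out a hydration and then an oxidation step of peroxisomal fatty acid oxidation. It is a classic PPARA target of rodent liver. The signal of Ehhadh was 8.00 in the WT pool and 8.67 in the H4-TG pool, a difference of 0.67 or 1.59-fold. The probe, 10438575, lies on chromosome 16 at 21761360 to 21787876 and ranked 8487 in the WT pool and 4968 in the H4-TG pool.

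Pdk4 phosphorylates and so switches off the pyruvate dehydrogenase complex, which spares glucose when fatty acids are burned. It is induced by fasting and by glucocorticoids as well as through PPARs. Its signal was 10.08 in the WT pool and 10.86 in the H4-TG pool, a difference of 0.78 or 1.71-fold. The probe, 10543017, lies on chromosome 6 at 5433351 to 5446309 and ranked 1706 in the WT pool and 821 in the H4-TG pool.

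**Figure D1:**
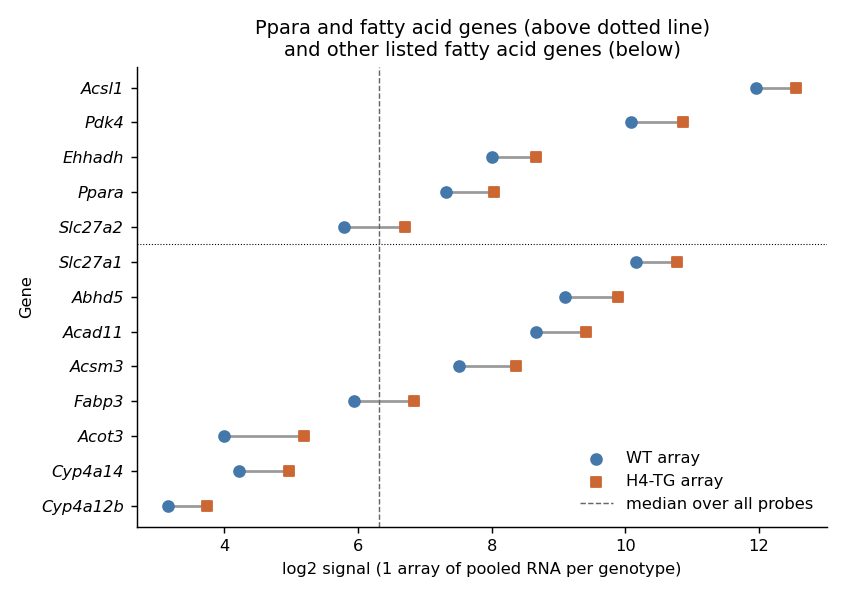
Log2 signal (x axis) of each gene (y axis) on the WT array (circles) and the H4-TG array (squares), with Ppara and its 4 targets above the dotted line and the other fatty acid genes of the authors' table below it. The order of the 5 genes by brightness is the same on both arrays, from Acsl1 (11.95 and 12.55) down to Slc27a2 (5.80 and 6.71), and the dashed line marks the median over all probes, 6.31.

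The signals of the 5 probes spanned 6.16 log2 units in the WT pool and 5.85 in the H4-TG pool, while their differences spanned 0.31. From largest to smallest difference the order was Slc27a2, Pdk4, Ppara, Ehhadh and Acsl1, in steps of at most 0.13, and no replicates give the error of such steps. The median difference over the 5 was 0.72, or 1.65-fold. The choice of genes put all 5 past 1.5-fold, which 4.27% of all probes exceeded, so nothing is read from that count. None of the 5 reached 2-fold, as did 0.892% of all probes. Above the signal minimum, where 4 of the 5 lay, 2.31% of probes were at least 1.5-fold and 0.63% at least 2-fold higher. Within the 869 probes of the authors' table the 5 ranked 182 for Slc27a2, 305 for Pdk4, 422 for Ppara, 527 for Ehhadh and 789 for Acsl1 by difference. Their median of 0.72 was close to the median of 0.71 over the 800 named genes, which come from the same table, so their size did not set them apart from the other genes listed as higher.

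The centre of the differences, and the share of probes past 1.5-fold, shifted with brightness. Among the 6156 probes within 0.5 log2 units of the mean signal of Slc27a2, the median difference was 0.02 and 4.42% were at least 1.5-fold higher. Among the 1014 probes near Pdk4 the median was -0.09 and 1.38% were at least 1.5-fold higher. Counted at its own brightness, Pdk4 was among the 6 probes of 1014 with the largest differences, or 0.592%. Ppara was among the 65 largest of 5449, Ehhadh among the 57 largest of 4480 and Slc27a2 among the 74 largest of 6156, which is 1.19%, 1.27% and 1.20%. At least 1.5-fold higher were 2.09% of the probes near Ppara and 1.76% of those near Ehhadh. Near Acsl1 there were 275 probes with a median difference of -0.15, of which 8 (2.91%) were at least 1.5-fold higher, and Acsl1 had the smallest difference of those 8. Over all probes, whatever their brightness, the order was another: Slc27a2 ranked 419 by difference, Pdk4 654, Ppara 849, Ehhadh 1022 and Acsl1 1422.

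**Figure D2:**
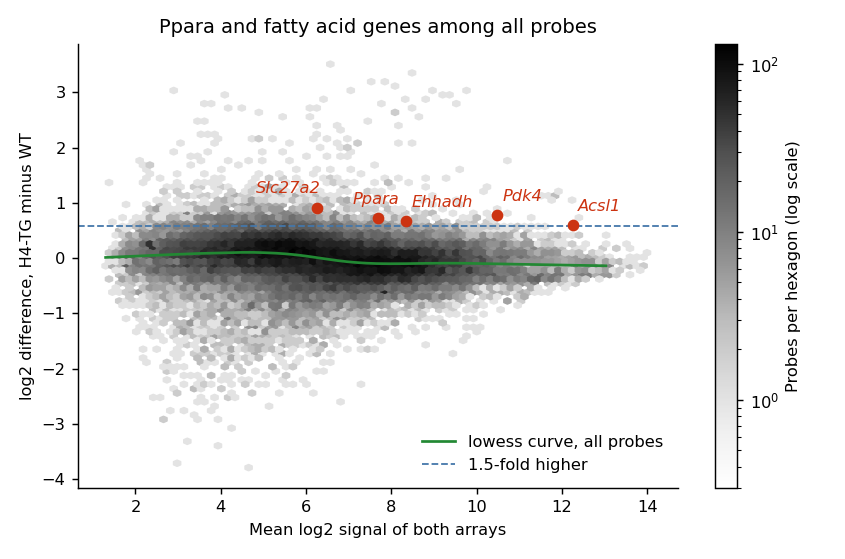
Difference in log2 signal, H4-TG minus WT (y axis), against the mean log2 signal of both arrays (x axis) for 35556 probes, shaded by the number of probes per hexagon, with the lowess curve through all probes. The 5 genes, in red, lie above the dashed line of 1.5-fold across the range of brightness, Slc27a2 at 0.91 and Acsl1 at 0.60, while the curve falls below 0 at the brightness of Acsl1.

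Because the curve lay below 0 for bright probes, removing it raised the bright genes most. After centring along signal level (lowess) the differences were 0.90 for Slc27a2, 0.88 for Pdk4, 0.82 for Ppara, 0.77 for Ehhadh and 0.73 for Acsl1, and their span narrowed from 0.31 to 0.17. Quantile normalization gave 0.93, 0.87, 0.81, 0.77 and 0.74 in the same order. Under each of these scalings and under median centring the order of the 5 by difference was the same. Under each, 5 of 5 stayed past 1.5-fold, but they were chosen past that fold. The share of all probes past it was counted only as deposited, at 4.27%, so nothing is read from that count.

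**Figure D3:**
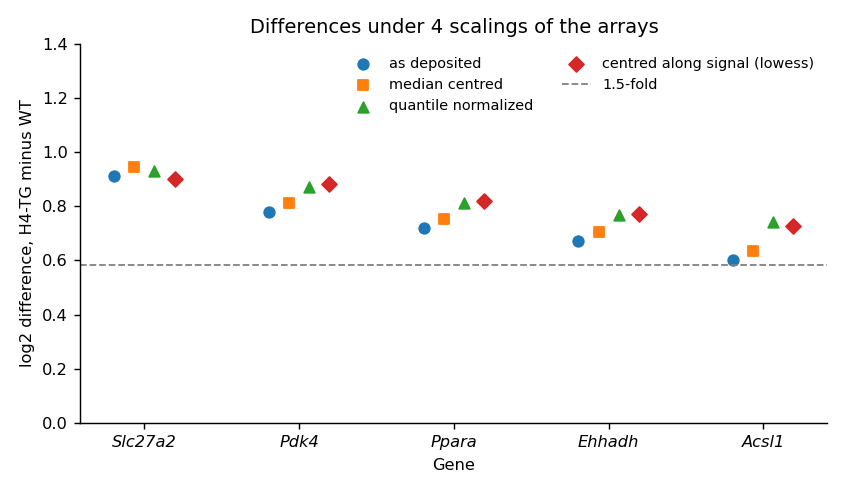
Difference in log2 signal, H4-TG minus WT (y axis), of the 5 genes (x axis) under 4 scalings, namely as deposited, centred on the median, quantile normalized and centred by lowess. Slc27a2 was highest (0.90 to 0.94) and Acsl1 lowest (0.60 to 0.74) throughout, and the dashed line marks 1.5-fold.

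Beyond these 5, 148 genes of fatty acid uptake, activation, oxidation and their control stood on 10 lists. Of these 148, 8 (5.41%) had a row in the authors' table, which holds 2.44% of all probes, and the other 140 have no named probe. The first share counts genes and the second probes of every kind, so no order is read from them. Here and below, a gene has a row only where the row carries a single symbol. The 47 rows without a single symbol were not searched, and a gene counted as without a row may be among them. The 8 differed by 0.58 to 1.20 with a median of 0.78. By the brightest probe of each gene, 5 of the 8 were above the signal minimum and 1 was at least 2-fold higher, below that minimum.

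Fatty acid handling at the cell surface and in the cytosol held 3 of the 8. Slc27a1 (FATP1), the insulin-responsive fatty acid transport protein of fat and muscle and a relative of Slc27a2, had signals of 10.15 in the WT pool and 10.77 in the H4-TG pool, or 1.53-fold. Abhd5, the co-activator of the triglyceride lipase ATGL, had 9.09 and 9.89, or 1.74-fold. Fabp3, the fatty acid binding protein of heart and muscle, also found in active brown fat, had 2 probes annotated to it at different places. The brighter, on chromosome 10 at 86194463 to 86195171, had 5.94 and 6.84, or 1.87-fold, and stood for the gene in the counts. The dimmer, on chromosome 4 at 129985984 to 129992702, had 5.23 and 6.48 and differed by 1.25, or 2.39-fold. The 2 probes thus disagree by more than the span of the 5 genes, and which of them reports Fabp3 was not tested. By mean signal the brighter lay above the signal minimum and the dimmer below it. Counts at that minimum and at 2-fold therefore depend on which probe stands for Fabp3.

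Activation and oxidation held the other 5. Acsm3, a medium-chain acyl-CoA synthetase, had 7.51 in the WT pool and 8.36 in the H4-TG pool, or 1.81-fold. Acad11, an acyl-CoA dehydrogenase for long chains, had 8.67 and 9.41, or 1.68-fold. Acot3, a peroxisomal thioesterase with close paralogs, had 3.99 and 5.20, or 2.30-fold, at a signal below the minimum. The omega-hydroxylase Cyp4a14, strongly induced by PPARA in mouse liver, had 4.22 and 4.96, and its relative Cyp4a12b had 3.16 and 3.75. Both Cyp4a probes lay below the signal minimum, and close copies in that family cannot be separated here.

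No gene of the carnitine shuttle (0 of 11), of ketone bodies and secreted PPARA targets (0 of 10) or of lipid droplet and uncoupling targets (0 of 13) had a row with a single symbol. Mitochondrial beta-oxidation had 1 of 19, peroxisomal oxidation 1 of 22 (Ehhadh), pyruvate dehydrogenase control 1 of 13 (Pdk4) and the receptors with their partners 1 of 18 (Ppara). Thus Cpt1b, Fgf21, Angptl4, Pparg and Ppargc1a, well-known genes of this pathway, have no named probe here, and their values among the 35556 probes could not be looked up.

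Skeletal muscle, which also expresses Ppara, Pdk4, Acsl1, Slc27a1 and Fabp3, showed larger differences on the same arrays. All 25 muscle markers had a row, 23 of them at least 2-fold higher, with a median difference of 2.45 or 5.45-fold. Of all probes 2.44% were in the authors' table and 0.892% were at least 2-fold higher, but the list was drawn up with the muscle differences known, so its full count is no independent result. Their summed linear signal was 4400 in the WT pool and 23267 in the H4-TG pool, 5.29 times as much, a sum in which the brightest probes weigh most. On the WT array 8 of the 25 lay below the median of all probes and on the H4-TG array 1 did. The brightest, Myl1, had log2 signals of 9.76 and 11.53 in the WT and H4-TG pools. Next by mean signal were the calcium pump Atp2a1 (8.16 and 11.20), Eno3 (8.81 and 10.45) and muscle creatine kinase, Ckm (8.15 and 10.95). Differences on the list ran from 0.66 to 3.35. Of 14 markers of cardiac and slow oxidative muscle, 10 had a row, with a median of 0.84. The 5 fatty acid genes, at 1.52-fold to 1.88-fold, lay below the skeletal muscle median, and Slc27a2 at 0.91 lay above the cardiac and slow muscle median. The part of muscle RNA in their differences was not tested.

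Markers of other sources of these transcripts could be followed only where they had a row. A marker without a row has no value here and may still be present in both pools. The authors' table holds 2.44% of all probes. Slc27a2 and Ehhadh are high in liver and kidney, and of 12 hepatocyte markers only Hpx had a row (4.87 and 5.51, below the signal minimum), while 0 of 8 kidney proximal tubule markers had one. Of 15 brown adipocyte markers 3 had a row, namely Cox8b (10.31 and 11.10), Cox7a1 (8.38 and 9.16) and Ucp1 (6.97 and 8.35). Cox8b and Cox7a1 are also among the 10 cardiac and slow muscle genes counted above, and they make up 92.8% and 89.5% of the summed linear signal of the 3, which was 1727 in the WT pool and 3092 in the H4-TG pool. Only Ucp1 of the 3 was on no muscle list. Of 18 white adipocyte markers 3 had a row, Slc7a10 (9.99 and 10.66), Zfp423 (7.11 and 7.70) and Agt (6.95 and 7.67), while Adipoq, Lep and Fabp4 have none. These 3 have values only because they are in a table of higher probes, so the tissue label could not be checked on them. Macrophage markers had 4 of 12, with a median difference of 0.77, and endothelial markers 0 of 9. What part these cell types had in the fatty acid genes was not tested.

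**Figure D4:**
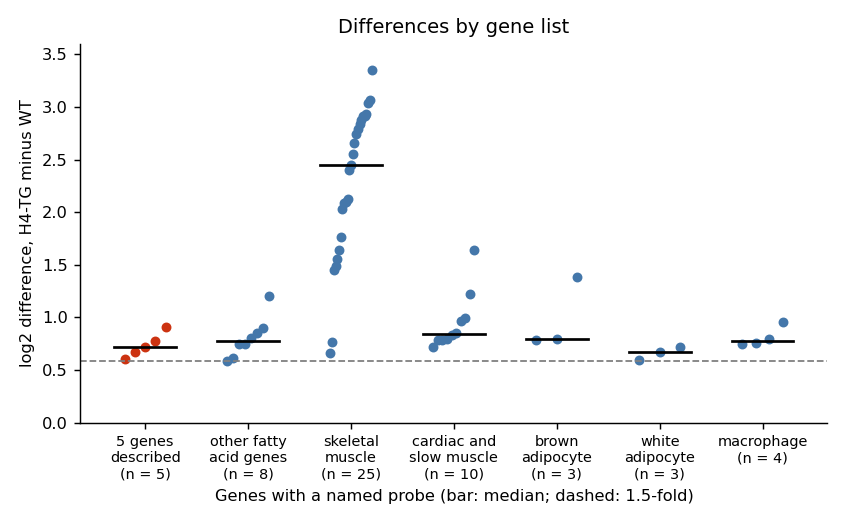
Difference in log2 signal, H4-TG minus WT (y axis), of each gene with a named probe in 7 groups (x axis), with the median as a bar and 1.5-fold as a dashed line. The 5 fatty acid genes (0.60 to 0.91) overlap each of the other groups, and all lie below the skeletal muscle median of 2.45. Every named gene comes from a table of higher probes, so no point can lie far below the line.

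The named genes nearest to each of the 5 by distance over the 2 log2 signals show which genes share both brightness and difference with them. For Ppara they were the macrophage lectin Mgl2 (distance 0.038), the adhesion molecule Clmp (0.054) and the metalloprotease Adam12 (0.062). For Pdk4 they were Gpx8 of the endoplasmic reticulum (0.028), Slc27a1 (0.117) and the amino acid transporter Slc7a10 (0.223). For Ehhadh they included the intermediate filament desmin, Des (0.114), and the microfibril protein Mfap5 (0.125). For Slc27a2 they were Gm10100 (0.022), the sarcoplasmic reticulum enzyme Dhrs7c (0.056) and Ddit4l (0.112). Acsl1 had a single close neighbour, the cytochrome P450 Cyp2e1 (0.164, with signals of 12.01 and 12.71), and the next, Prkar2b and Cox8b, were at 1.77 and 2.20. The likeness rests on 2 arrays and on a table of higher probes, so it orders mainly brightness.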

How the data were processed

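The values are log2 signals of mouse gene arrays, 1 WT and 1 H4-TG, from a value table of 35556 probes that the authors deposited. The submitters' processing notes name MAS5, without settings or a scaling between arrays. The authors' deposited table of 869 probes adds gene symbols, rounded log2 signals and, per the file headers, a linear fold (H4TG over CON). For the 5 genes its signals lay within 0.005 of the value table. Of its rows 822 carried 1 symbol and gave 800 genes, with symbols updated through RefSeq (746 rows by accession, 46 by symbol, 10 by synonym, 20 unmatched). The other 47 rows were not searched for listed genes. The brightest probe stood for a gene.

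The difference is H4-TG minus WT, with no test and no p-value. Promoter windows were searched in the RefSeq table. Protein sequences were not used here. Genes named are the 5, all fatty acid list genes with a row, up to 4 markers per list and 3 nearest genes each, of which 1 is not reported here. The 5 genes and all lists were chosen with earlier results of these data known. Lowess (span 0.3) was checked on simulated data for recovery of raised probes. Quantile scaling was checked there only for giving both arrays the same distribution, which it does by construction. Computation used pandas 2.3.3, numpy 2.4.6 and statsmodels 0.14.6 under Python 3.11.15.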

Additional observations from a re-analysis of the deposited data

How the results depend on the processing

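With 1 array per genotype, no error accompanies a value, and no array could be left out. No paired analysis was possible because a genotype is a single array. The median difference of the 5 genes was 0.72 as deposited, 0.75 after median centring, 0.81 with quantile normalization and 0.82 with lowess centring along signal. Single differences moved by over 0.1 for Pdk4 (0.88) and Acsl1 (0.73) with lowess centring, and for Acsl1 (0.74) with quantile normalization. The 5 were taken from probes listed as higher, so a kept direction says nothing about stability. With a signal minimum at the median 4 of the 5 were counted past 1.5-fold, and with a minimum at the upper quartile 3 were, since fewer probes qualify. Of the 8 other fatty acid genes 1 was at least 2-fold higher, but 0 were with either minimum, and 2 were when probes of a gene were averaged, which adds the dimmer Fabp3 probe. Of the same 8, 7 were past 1.5-fold and 4 with the minimum at the upper quartile. The 8, like the 5, come from a table that begins at 1.5-fold, so nothing is read from their counts past it. Of all probes 4.27% were at least 1.5-fold and 0.892% at least 2-fold higher. At or above the median minimum 2.31% were at least 1.5-fold higher, and no share was counted for the upper quartile. Ranks by difference depend on the probes ranked by construction. Among the 28934 probes from the lowest identifier of the authors' table upward, Slc27a2 ranked 227, Pdk4 381, Ppara 525, Ehhadh 657 and Acsl1 982. The ranks within 0.5 of a gene's signal were chosen after seeing the data.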
